A study of Mus musculus with 12 samples.

Results

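The genes described are 9 components and receptors of the complement system, chosen by symbol: C1QA, C1QB, C1QC, C3, C4B, SERPING1, C3AR1, C5AR1 and ITGAM. They are 9 of 13956 genes with a value in the deposited table, and all 9 were listed above the lesion. Below the lesion 8 were listed, and ITGAM was not. The study asked whether loss of 1 synj1 allele alters the spinal cord of mice that express human ApoE4 after injury. Synaptojanin 1 is a lipid phosphatase of endocytosis and the synaptic vesicle cycle. RNA was sequenced from male mice, operated on at 4 months of age, 14 days after a contusion at thoracic level 9. The 4 groups, with 3 samples each, were ApoE4 synj1+/+ above the injury, ApoE4 synj1+/- above, ApoE4 synj1+/+ below and ApoE4 synj1+/- below. Every group carried human ApoE4 and a contusion, and sham-operated and ApoE3 cords were not analysed here, so neither an effect of injury nor one of ApoE4 can be read from these values.

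Complement is a cascade of secreted proteins that tags cells, debris and synapses for uptake. In the classical pathway, C1q binds a surface and its partner proteases cleave C4, which leads to cleavage of C3, the step shared by all pathways. C3 fragments are read by phagocytes through the integrin CD11b/CD18, and the small fragments C3a and C5a signal through their own receptors. In the central nervous system microglia are the main source of C1q, while reactive astrocytes also make C3 and C4.

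Each level below was read as FPKM, reads scaled to gene length and sequencing depth, after subtracting 1. The study's methods name normalization by the upper quartile, so the scale need not be that of FPKM by library size. Each such level is 1 combined value per group, which the authors made from 3 samples. The spread between mice could therefore not be computed and no test was run on these values, and a difference is described by its size alone. The p-values deposited beside them belong to the authors' own comparisons and were not used. The log2 ratio is that of FPKM plus 1 in cord labelled synj1+/- over cord labelled synj1+/+. A log2 ratio of 0.5 in size, which for a decrease is a linear ratio of 0.707, was used to count genes. By the study's methods the libraries of a site were reduced to equal read numbers before alignment, which does not make the numbers of aligned reads equal. The table itself holds no read counts. The animal numbers in the study's methods point to the same mice having given the samples above and below, although the labels do not tie them, so the sites are not to be read as independent animals. In bulk tissue, fewer cells of a type and less RNA per cell cannot be told apart.

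The labels were checked on the targeted gene. SYNJ1 stood above the lesion at an FPKM of 1904 in cord labelled synj1+/+ and of 2403 in the group labelled synj1+/-. Below it, the same groups had 1846 and 2592. SYNJ1 was thus higher in cord labelled synj1+/- at both sites, with log2 ratios of 0.34 and 0.49, against the direction of the genotype. The study's methods state that genotypes were checked by PCR, which these files do not show. Every direction given here rests on the labels as deposited. The FPKM of APOE was 766 and 548 above the lesion and 476 and 563 below it, in the same order of genotypes. The mice express human ApoE4, while the reads were aligned to the mouse genome. These APOE values may thus count only part of the reads of the human transcript. Markers of spinal cord were abundant, with an FPKM above the lesion in cord labelled synj1+/+ of 5238 for SNAP25 of neurons, 12974 for GFAP of astrocytes and 10915 for MOBP of oligodendrocytes.

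All 9 complement genes were lower in cord labelled synj1+/- above the lesion, and all 8 listed were lower below it, with changes in FPKM that ranged from -1.92% to -67.1%. Above the lesion 4 of 9 passed the log2 ratio of -0.5 (C1QA, C1QB, C1QC and C5AR1), where 2.85% of all 13643 genes did so. Below it 5 of 8 passed (C1QA, C1QB, C1QC, C3AR1 and SERPING1), where 5.72% of all 12336 genes did. None was higher by that amount at either site, against 1.3% of all genes above and 2.04% below. Among genes with an FPKM of at least 10 in a group, which leaves out C5AR1 and, of the counted genes, no other, 2.11% were lower and 0.918% higher by that amount above the lesion, and 4.72% were lower and 1.48% higher below it. The median log2 ratio of the 9 genes was -0.43 above, beside -0.00385 for all genes, and -0.64 for the 8 genes below, beside 0.01 for all genes. The 3 C1q chains, which lie side by side, weigh on this median: without them it was -0.35 below.

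**Figure D1:**
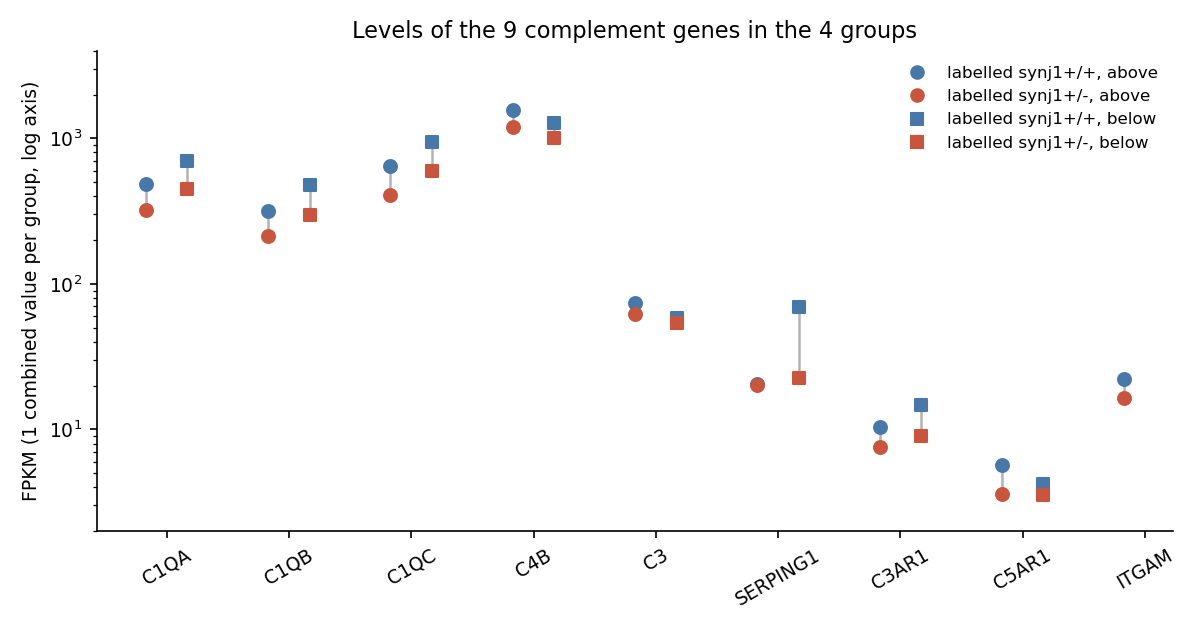
FPKM of the 9 complement genes on a log axis, with 1 combined value per group and no error bars because the table holds no single samples. Circles are cord above and squares cord below the lesion, blue is labelled synj1+/+ and red synj1+/-, and red lies under blue for every pair, nearly on it for SERPING1 above the lesion (20.6 and 20.2).

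The C1q complex, the sensor that starts the classical pathway, is built of an A, a B and a C chain from 3 separate genes. In the RefSeq annotation of GRCm38.p6 all 3 lie on the minus strand within 18.7 kb, C1qb at chr4:136880126-136886200, C1qc at chr4:136889801-136892936 and C1qa at chr4:136895916-136898844. The gaps between neighbouring genes are 3.60 kb and 2.98 kb. RefSeq promoter sequences were matched for 6 of the 9 genes by symbol (C1qb, C1qc, C3, C3ar1, C5ar1 and Itgam). The 250 bases before the start of C1qb and C1qc are shown because these neighbours had closely similar log2 ratios, and those of C3 because its ratio was among the smallest. For C1qc the table's start lies just inside the outer limit of the gene given above. Capitals mark GAGGAA on either strand, the core letters of sites for PU.1, a transcription factor of myeloid cells.
C1qb, chr4:136886201-136886450, minus strand: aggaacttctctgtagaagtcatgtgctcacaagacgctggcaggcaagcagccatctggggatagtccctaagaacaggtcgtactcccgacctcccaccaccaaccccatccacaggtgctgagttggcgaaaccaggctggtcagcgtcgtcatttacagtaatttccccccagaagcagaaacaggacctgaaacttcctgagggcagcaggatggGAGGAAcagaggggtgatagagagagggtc
C1qc, chr4:136892915-136893164, minus strand: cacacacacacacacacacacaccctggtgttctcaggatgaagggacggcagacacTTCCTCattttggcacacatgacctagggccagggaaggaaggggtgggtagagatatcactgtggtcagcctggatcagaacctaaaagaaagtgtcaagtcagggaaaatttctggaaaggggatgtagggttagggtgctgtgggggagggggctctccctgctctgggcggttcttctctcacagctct
C3, chr17:57228137-57228386, minus strand: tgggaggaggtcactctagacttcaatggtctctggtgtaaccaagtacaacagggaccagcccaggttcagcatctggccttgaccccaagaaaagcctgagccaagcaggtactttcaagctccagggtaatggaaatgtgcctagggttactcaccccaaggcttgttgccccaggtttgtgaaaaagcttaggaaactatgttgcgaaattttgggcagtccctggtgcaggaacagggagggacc
Counted from the start of the gene, the match lies at -30 in C1qb, on the gene's strand, and at -193 in C1qc, on the other strand. In windows of 300 bases, which add 50 bases after the start, GAGGAA was found in 3 of these 6 genes (C1qb, C1qc and Itgam) and in 28.3% of all 32851 RefSeq promoter windows. It was in none of the windows of C3, C3ar1 and C5ar1, although C3AR1 had a log2 ratio of -0.65 below and C5AR1 of -0.53 above. The 3 sequences shown were picked by their ratios, so a link between letters and ratios cannot be read from them. A match of 6 letters is a description of the sequence and not a binding site. The letters TTCNNNGAA (STAT), present in 8.30% of windows, and the interferon response letters (GAAA, any 2 bases, GAAA), present in 3.44%, were in none of the 6 windows. The NF-kB letters (GGGA, any 4 bases, CC), present in 20.7%, were in those of C1qb, C1qc and C3. Each was searched on both strands.

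The FPKM of C1QA was 484 in cord labelled synj1+/+ and 322 in cord labelled synj1+/-, both above the lesion. Below the lesion the pair was 702 and 449. For C1QB the values were 319 and 212 above and 480.5 and 299 below. For C1QC, the most abundant chain, they were 643 and 410.4 above and 938 and 599.6 below. The log2 ratios were -0.59, -0.59 and -0.65 above and -0.64, -0.68 and -0.65 below, for the A, B and C chains. Of all genes, 1.91% had a log2 ratio at or below that of C1QA above the lesion, and 3.53% did below it. The proportions of the chains were nearly equal in the 4 groups. C1QA made up between 33.1% and 34.1% of the summed C1q FPKM in the 4 groups, C1QB between 22.0% and 22.7%, and C1QC between 43.5% and 44.5%. The summed level was 1446 and 944 above the lesion and 2121 and 1348 below it, so cord labelled synj1+/- below the lesion stood close to cord labelled synj1+/+ above it.

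C4B is the substrate of the C1 proteases, and it was the most abundant of the 9 genes in every group. Its FPKM was 1575 and 1195 above the lesion and 1280.2 and 1003 below it, with log2 ratios of -0.40 and -0.35. C4A, a close copy that RefSeq lists as a transcribed pseudogene, lies 65.2 kb away at chr17:34809092-34823460, against chr17:34728139-34743902 for C4b. Of the 5280 windows of 100 bases in the main C4b transcript of GENCODE, 16.5% also occur in a C4a transcript, so reads may be split between them. The FPKM of C4A was 169 and 118 above and 168 and 88.2 below, with log2 ratios of -0.52 and -0.92. The sum of C4B and C4A had a log2 ratio of -0.41 at both sites. Each FPKM is scaled to its own gene's length, so this sum can still depend on the split.

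C3, on chr17:57203967-57228136, had lower levels and a smaller difference. Its FPKM was 73.4 and 62.5 above the lesion and 58.2 and 54.1 below it, with log2 ratios of -0.23 and -0.10. Below the lesion 30.4% of all genes had a ratio at or below that of C3, so its difference there was not unusual among genes. The ratio of C4B to C3 was between 18.5 and 22.0 in the 4 groups. The ratio of summed C1q to C3 was 19.7 and 15.1 above the lesion and 36.5 and 24.9 below it, lower in cord labelled synj1+/- at both sites.

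SERPING1 encodes C1 inhibitor, the plasma serpin that inactivates the C1 proteases, on chr2:84765360-84775444. Above the lesion its FPKM was 20.6 in cord labelled synj1+/+ and 20.2 in cord labelled synj1+/-, a log2 ratio of -0.03. Below the lesion it was 68.9 and 22.7, a log2 ratio of -1.56. Of the 4 values, 3 lay between 20.2 and 22.7, and cord labelled synj1+/+ below the lesion stood apart from them. The sites were normalized separately, so this nearness depends on the scaling. Dividing each group by its 75th percentile changed the log2 ratio of below over above from 0.16 to 0.34 in cord labelled synj1+/-. In cord labelled synj1+/+ it changed from 1.69 to 1.90. The log2 ratio between genotypes was smaller below the lesion than above it by 1.54. Of the 12023 genes listed at both sites, 0.291% had a difference as low or lower. Of these genes, 4.56% differed by -0.5 or less and 3.57% by 0.5 or more. For the other 7 genes listed at both sites this difference lay between -0.24 (C3AR1) and 0.34 (C5AR1).

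The 2 anaphylatoxin receptors were the least abundant of the 9 genes. C3AR1, the receptor for C3a, on chr6:122847140-122856157, had an FPKM of 10.3 and 7.52 above the lesion and 14.8 and 9.02 below it. Its log2 ratios were -0.41 and -0.65, the latter as large as those of the C1q chains. With 10 added to the FPKM in place of 1, the ratios of C3AR1 were -0.21 and -0.38, no longer past -0.5, while those of the C1q chains below the lesion stayed between -0.67 and -0.63. C5AR1, the receptor for C5a, on chr7:16246743-16259540, had an FPKM of 5.66 and 3.60 above and 4.21 and 3.55 below. Its log2 ratios of -0.53 and -0.20 rest on low levels, and between 7.60% and 12.3% of all genes in a group had a lower FPKM than C5AR1. With 10 added, the ratio of C5AR1 above the lesion was -0.20. ITGAM encodes CD11b, the alpha chain of complement receptor 3, on chr7:128062640-128118491. Its FPKM above the lesion was 22.3 and 16.4, a log2 ratio of -0.43. ITGB2, the CD18 chain that pairs with it, had an FPKM of 103 and 81.2 above and 139 and 87.9 below, with log2 ratios of -0.33 and -0.66.

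**Figure D2:**
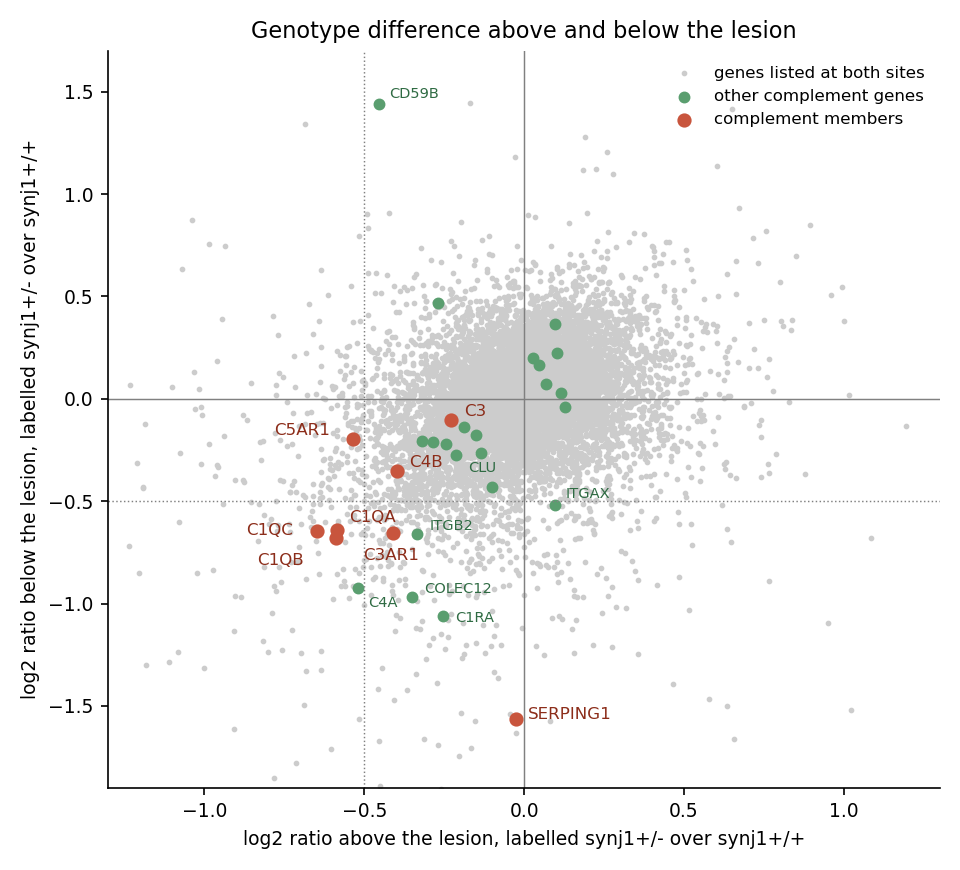
Log2 ratio of cord labelled synj1+/- over synj1+/+ below the lesion (vertical axis) against that above it (horizontal axis) for the 12023 genes listed at both sites (grey), of which 49 fall outside the axes. Red points are the 8 complement members, green points other complement genes, and dotted lines mark -0.5. The C1q chains lie past both lines, and SERPING1 (-0.03 above, -1.56 below) past that for below alone.

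The levels were also set side by side between sites, although each site was reduced to equal read numbers and normalized on its own. In cord labelled synj1+/+, the C1q chains were between 1.45 and 1.51 times as high below the lesion as above it, and in cord labelled synj1+/- between 1.40 and 1.46 times. SERPING1 was 3.34 and 1.12 times as high below in the same order, and C3AR1 had log2 ratios of 0.48 and 0.23. C4B was 0.813 and 0.839 times as high below, and C3 0.793 and 0.865 times. On the log2 scale, 4 of the 8 genes were higher below by at least 0.5 in cord labelled synj1+/+ (C1QA, C1QB, C1QC and SERPING1), where 4.57% of all genes were. In cord labelled synj1+/- C1QC was (0.55), with C1QB (0.497) and C1QA (0.479) just under that value, where 2.29% of all genes were past it. None of the 8 was lower below by 0.5, against 2.32% and 1.31% of all genes. Dividing each group by its 75th percentile raised the median of all genes by 0.21 in cord labelled synj1+/+ and 0.19 in cord labelled synj1+/-. With that scaling C1QA and C1QB stood at 0.67 and 0.69 in cord labelled synj1+/-, and C3AR1 at 0.68 in cord labelled synj1+/+. These genes moved by about as much as the median of all genes, so their passing 0.5 is not a separate result. C3 and C4B were still lower below, by log2 values between -0.12 and -0.02, and C5AR1 in cord labelled synj1+/- changed from -0.02 to 0.14.

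**Figure D3:**
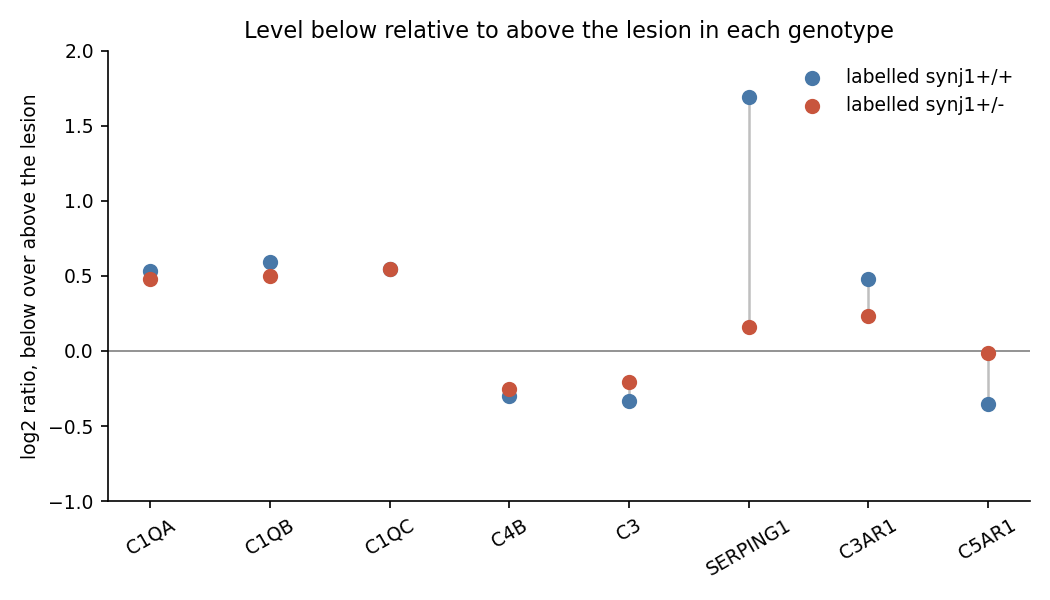
Log2 ratio of the level below over that above the lesion for the 8 complement genes listed at both sites, with 1 value for each genotype as labelled (blue synj1+/+, red synj1+/-) and no error bars. C1q chains lie between 0.48 and 0.59 in both genotypes, and SERPING1 at 1.69 and 0.16.

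Other genes of the system were read from 4 lists of 55 genes, of which 27 had a value. Above the lesion 1 of 25 (C4A) was past -0.5, near the 2.85% of all genes, and none past 0.5, with a median log2 ratio of -0.15. Below it 7 of 24 were past -0.5, beside 5.72% of all genes, and 1 past 0.5, with a median of -0.21. With 10 added to the FPKM in place of 1, 0 were past -0.5 above the lesion and 4 below it. The share of all genes was not computed with 10 added, so these 2 counts have no background to be read against. Among the activators, C1RA and C1S1, the proteases that C1q carries, had an FPKM of 6.08 and 2.40 and of 22.3 and 10.2 below the lesion, each with a log2 ratio of -1.06. Above the lesion C1RA was at 1.74 and 1.3, and C1S1 was not listed. COLEC12, a scavenger collectin, had log2 ratios of -0.35 above and -0.97 below, and MASP2, a protease of the lectin pathway, of 0.07 at both sites. The terminal pathway was represented by C8G alone, at an FPKM between 2.33 and 3.85.

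Inhibitors and regulators showed no common direction, with a median log2 ratio of -0.02 over 12 genes above the lesion and -0.00499 over 10 genes below it. CLU, the abundant fluid-phase regulator clusterin, had an FPKM of 3721 and 3209 above and 3762 and 3110 below. SUSD4, a membrane regulator, had log2 ratios of 0.10 and 0.22. The genes past 0.5 in size below the lesion were CD59B and CFHR2. CD59B, a blocker of the membrane attack complex, had an FPKM of 11.6 and 8.19 above and 4.22 and 13.1 below. Its log2 ratios were -0.45 and 1.44, and those of CD59A, its paralogue, were 0.13 and -0.04. How reads were divided between the paralogues is not given in the sources used here. CFHR2, a relative of complement factor H, was at 2.29 and 0.398 below the lesion, a log2 ratio of -1.24 on low levels, and was not listed above it. Among receptors ITGAX, the alpha chain of complement receptor 4, had log2 ratios of 0.10 and -0.52, and the multiligand proteins CALR and LRP1 of between -0.27 and -0.13.

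Several markers of cells that make these proteins were lower as well. The microglia list had 13 of 13 genes listed above the lesion, with a summed FPKM of 1392 and 1087 and 3 genes past -0.5, and 8 of 13 below, with 869 and 626 and 4 past -0.5, beside 2.85% and 5.72% of all genes. Its median log2 ratio was -0.29 above and -0.46 below. FCRLS (-0.71 and -0.72) and TYROBP (-0.64 and -0.85) had ratios as large as the C1q chains, and so had TREM2, the most abundant of the list above the lesion (-0.59). By contrast, SALL1, a transcription factor that marks resident microglia, had 0.04 at both sites, and above the lesion P2RY12 had -0.07 and SIGLECH 0.06. The list of macrophages and monocytes had 9 of 13 genes above and 10 of 13 below. Its summed FPKM was 803 and 567 above and 1729 and 834 below, and its median -0.40 and -0.71. LYZ2, its most abundant gene, had log2 ratios of -0.70 and -1.24, and MS4A7 of -1.34 and -1.19. No listed marker of either list was at 0, CD163, F13A1 and CCR2 were not listed, and the part of these cells in the complement values was not tested.

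Most fibroblast markers, like SERPING1, were highest in cord labelled synj1+/+ below the lesion. Above it all 7 listed were also lower in cord labelled synj1+/-. Of the 8 genes, 7 were listed above the lesion, with a summed FPKM of 97.2 and 79.6, and 8 below, with 442 and 106. PDGFRA, also a marker of oligodendrocyte precursors, was the most abundant above. Their median log2 ratio was -0.49 above and -2.76 below, and 3 of 7 were past -0.5 above (COL3A1, COL1A1 and LUM) and 7 of 8 below, beside 2.85% and 5.72% of all genes. These 3 had an FPKM of at most 4.26 above. The others listed there, at higher levels, were also lower but not past -0.5. They were DCN (-0.49), COL1A2 (-0.36), FBLN1 (-0.27) and PDGFRA (-0.13). PDGFRA differed little between the groups, with an FPKM of 62.6 and 57.3 above and 68.3 and 55.0 below. Below over above in cord labelled synj1+/-, the median log2 ratio of the list was 0.67, against 0.16 for SERPING1. DCN, the most abundant below, had an FPKM of 9.60 and 6.54 above and of 138 and 18.8 below. COL3A1 had 4.26 and 0.728 above and 68.9 and 6.91 below. None was at 0. Their part in the SERPING1 value was not tested. Of 8 neutrophil genes 4 were listed, with a median log2 ratio of 0.09 above the lesion and -0.45 below it. Above it S100A8 (0.12), S100A9 (0.05) and MMP9 (0.26) were higher in cord labelled synj1+/-. CSF3R, at 367 and 281, was lower there (-0.39), and so was the summed FPKM of the list (375 and 290). Below the lesion all 4 were lower, and S100A8 was at 5.41 and 2.04. CSF3R, at 458 and 325 below, made up most of the sum of that list (489 and 346). Astrocyte markers had medians of -0.21 and -0.18 with none past -0.5, and GFAP had log2 ratios of -0.29 and -0.39. Neuron markers had medians of 0.07 and 0.22, oligodendrocyte markers of -0.10 and 0.03, and 0 of 10 lymphocyte genes were listed.

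**Figure D4:**
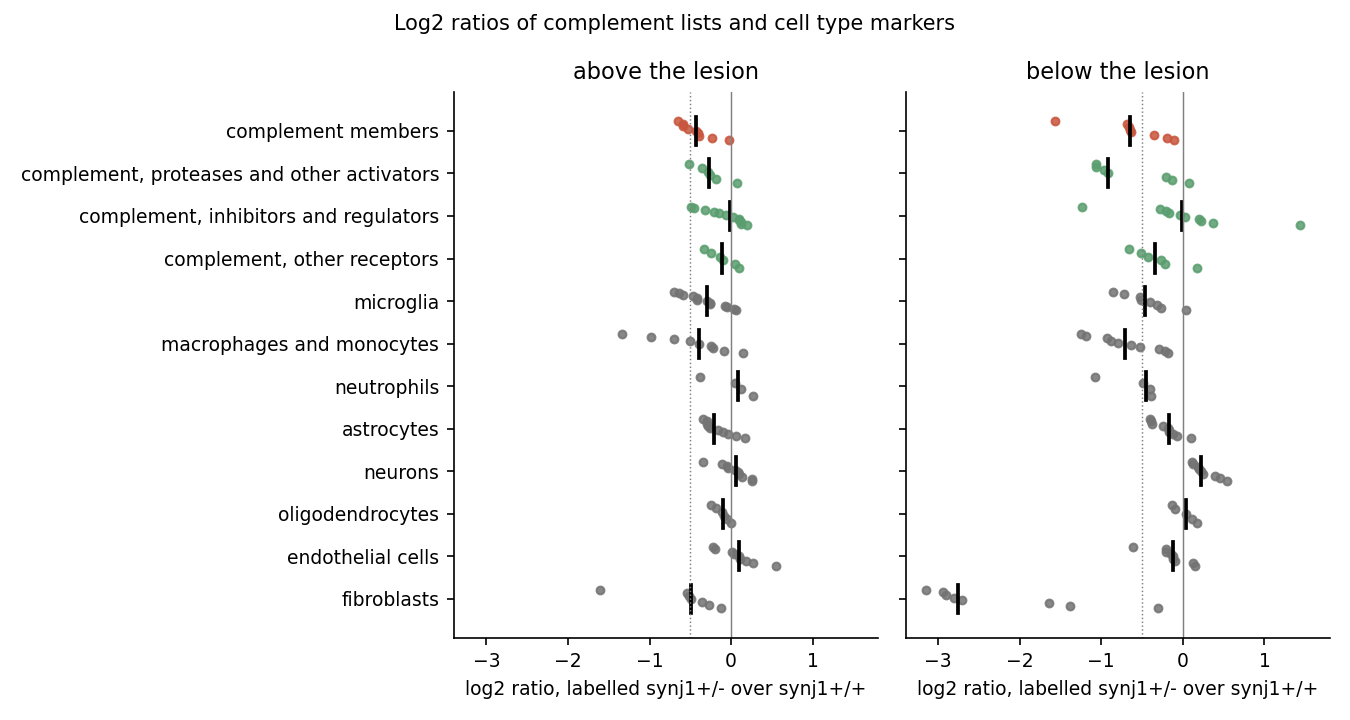
Log2 ratios of single genes (points) and their median (black bar) for complement lists and cell type markers, above (left) and below the lesion (right). The dotted line marks -0.5. Complement members lie at or under 0 at both sites, and the fibroblast list has a median of -0.49 above and -2.76 below.

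The profile of the complement genes over the 4 groups, taken as the median of the 8 genes listed at both sites on centred log2 values, was compared with 9016 genes with an FPKM of at least 10 in every group. Outside the lists, the 5 nearest by Euclidean distance were ABCA1 (0.04), FTL1 (0.07), MERTK (0.08), SLC11A1 (0.09) and IFI203 (0.10). ABCA1, a cholesterol exporter that lipidates apolipoprotein E, had an FPKM of 61.8 and 44.0 above the lesion and 88.9 and 52.2 below it. MERTK, a phagocyte receptor for dying cells, had 24.8 and 17.3 above and 32.7 and 20.3 below. FTL1, the ferritin light chain, had log2 ratios of -0.41 and -0.67, and SLC11A1, a metal transporter of phagosomes, of -0.42 and -0.71.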

How the data were processed

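Spinal cord RNA of 12 samples in 4 groups, with genotype and site taken from the labels, was analysed. The submitters' processing notes name STAR 2.5.4b, Cuffdiff 1.3.0 and GRCm38.p6; the study's methods add that libraries of a site were cut at random to equal read numbers and normalized by the upper quartile, and the annotation is not given in the sources used here. The authors deposited 1 value per gene, group and site in 25985 rows and 0 columns of single samples. These values were read as FPKM plus 1, since the lowest is exactly 1. The deposited fold changes, p-values and q-values, and a shorter list of them, are the authors' own comparisons and were not used. A total of 3 symbols listed more than once at a site were left out there.

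Log2 ratios were computed from the values as deposited and counted at 0.5 in size. With 1 value per group no test was possible. Alternatives were pseudocounts, a filter, 2 scalings, other folds and the mean. The genes named are the 9 members, SYNJ1, APOE, other complement genes past the fold or most abundant, the most abundant and most changed cell markers, and the 5 nearest profiles; others, such as SALL1, P2RY12, SIGLECH, CD59A and C1q-related genes, were chosen after their values were seen. Members and lists were chosen with earlier results of these data known. Python 3.11.15, numpy 2.4.6, pandas 2.3.3 and matplotlib 3.10.9 were used, and the calculation was tested on simulated data. Protein features planned at the start were not analysed here.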

Additional observations from a re-analysis of the deposited data

How the results depend on the processing

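No paired analysis was possible because the table holds 1 combined value per group; for the same reason no replicate could be left out. A median was taken as moved when it shifted by over 0.1, and a count when it changed by over 1.5 times. Of 64 values of the summary results under alternatives, 47 stayed within these limits. The filter on low values changed none of them, so this tally says little about how firm they are. Adding 10 to the FPKM gave medians of -0.29 above and -0.51 below, and 0.41 for below over above in cord labelled synj1+/+. It also gave 0 and 4 other complement genes lower above and below, and adding 0.1 gave 2 above. The share of all genes was not computed for either pseudocount, so these counts have no background. Scaling by the 75th percentile gave 0.71 and 0.37 for below over above in synj1+/+ and synj1+/-. A fold of 0.3 counted 7 members and 6 other genes lower above, where 8.52% of all genes were. A fold of 1 counted 0 and 0 above (0.55% of all genes), and 1 member (SERPING1) and 3 other genes below (1.31%). The mean in place of the median gave -0.18 for the difference between sites and 0.36 for below over above in synj1+/+. Leaving out the 3 C1q chains, chosen after seeing the data, gave a median of -0.35 below. Of 85 values of single members, 7 moved and none reversed. All 7 came from a changed pseudocount. The filter left every member value as it was. The scalings shifted the median log2 ratio of all genes within a site by between -0.02 and 0.00385, under the limit of 0.1. These settings could thus hardly move a member, and the tally does not measure robustness. C3AR1 ranged from -0.45 to -0.21 above and from -0.71 to -0.38 below, losing its place past -0.5 below when 10 was added, C5AR1 from -0.64 to -0.20 above and from -0.24 to -0.07 below, ITGAM from -0.45 to -0.29, and SERPING1 from -1.60 to -1.27 below. The C1q chains stayed between -0.65 and -0.57 above and -0.70 and -0.63 below.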

Other observations

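Genes that carry the globular domain of C1q but act outside complement were read as a list of 21, of which 17 had a value. None of 15 was past a log2 ratio of 0.5 in size above the lesion, where 2.85% of all genes were lower and 1.3% higher by that amount. Below it 4 of 15 were past -0.5 and 1 past 0.5, beside 5.72% and 2.04% of all genes. The 4 were EMILIN1, a glycoprotein of elastic fibres (27.3 FPKM in cord labelled synj1+/+ and 9.57 in cord labelled synj1+/-), C1QTNF6 (58.2 and 24.7), C1QTNF1 (16.7 and 10.7) and C1QTNF2 (3.38 and 1.15). The synaptic organizer C1QL1 was at 27.8 and 23.5 FPKM there, and C1QTNF4, the most abundant of the list, at 303 and 405. Its log2 ratio was 0.24 above and 0.42 below. The list had medians of -0.07 and -0.13.

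Markers of red blood cells ran opposite to the complement genes at both sites, by more above the lesion. All 5 were past 0.5 there, beside 1.3% of all genes, with a median log2 ratio of 2.17, and HBA-A1 had an FPKM of 103 in cord labelled synj1+/+ and 468 in cord labelled synj1+/-. Below the lesion all 5 were also higher, with a median of 0.37. There 1 of 5 (ALAS2, log2 ratio 0.65) was past 0.5, beside 2.04% of all genes, and HBA-A1 was at 255 and 329. Among endothelial genes KDR had a log2 ratio of 0.54 above and 0.13 below, and CDH5 of 0.10 and -0.61, with list medians of 0.10 and -0.13. Pericyte and smooth muscle genes had medians of 0.20 and -0.16, with 0 genes past 0.5 in size at either site. Oligodendrocyte precursor genes had medians of -0.12 and -0.16, with 0 past 0.5 in size.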
